A study of Mus musculus with 2 samples.

Results

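The subject here is the long runs of neighbouring regions in which the library of SAHA-treated osteoblasts held more histone H4 chromatin immunoprecipitation tags than the library of DMSO-treated cells. The deposited list of 61400 such regions was sorted along the autosomes, and neighbours with a gap of 10 kb or less were joined. Runs of 20 or more regions were kept. This gave 214 clusters with 6088 regions, or 9.92% of all listed regions and 10.0% of the 60824 autosomal ones. The members were chosen by their listed positions, and a region is listed only where its SAHA tags exceeded the DMSO background, so every value of this comparison is given as a description and no test was run on it.

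The cells were MC3T3 sc4, a mouse osteoblast line from calvaria, kept in osteogenic medium with ascorbic acid and beta glycerol phosphate. On day 4 one culture received 20 µM SAHA (suberoylanilide hydroxamic acid) and the other its solvent DMSO, in both cases for 2 hours. Both remained exposed during a collagenase digest of 40 min before crosslinking. The labels name an antibody against histone H4, and the design text describes the target as acetylated H4. Each condition had 1 library of a single cell line, so the spread between cultures is unknown. All intervals cover counting error or the scatter among clusters or among regions only. Those over regions treat neighbours as independent, which they are not, so they are too narrow.

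Acetyl groups on the tail of histone H4 neutralise the charge of lysines and loosen the hold of the nucleosome on DNA. Acetyltransferases place them at promoters, enhancers and transcribed genes, and histone deacetylases remove them. SAHA blocks the zinc-dependent deacetylases, so acetyl groups that would be removed stay in place. Long stretches with many closely spaced acetylated elements are known from genes that are strongly active in a given cell type. Genes at the clusters were not looked up here, and no sequence was read, since the gene and promoter tables used here belong to another genome build. All positions are in build mm9.

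After the authors' limit on duplicate tags, 123676661 SAHA tags and 76214516 DMSO tags were kept, which is 97.4% and 65.6% of the totals. One DMSO tag was therefore weighed as 1.62 SAHA tags. The genome average was 66.1 SAHA tags per kb. No DMSO value is listed for a region, so a local DMSO level was recovered from each score, as described under the processing. Here it is expressed as multiples of the genome average. The ratio of a region is its SAHA tags over that level.

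The clusters spanned 22.7 Mb together, 1.21% of the effective genome, and their regions covered 13.2 Mb of that. The regions held 2748976 SAHA tags, or 2.22% of the kept ones. The median span was 97.5 kb (quartiles 79.1 and 125.1 kb, 95% interval of the median 90.4 to 104.4 kb). The shortest spanned 44.7 kb and the longest 284.6 kb. The median number of regions was 26. Most clusters were near the lower limit, with 145 of 20 to 29 regions, 50 of 30 to 39 and 19 of 40 or more. They stood at the upper end of 19475 autosomal clusters, of which 8547 were single regions, 9872 held 2 to 9 regions and 842 held 10 to 19.

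At the threshold the clusters formed a continuum. The 21 clusters of exactly 20 regions had a median span of 78.8 kb, a median cover of 55.8% and a median of 199.3 SAHA tags per kb covered. The 24 clusters of exactly 19 regions, just outside, had medians of 66.7 kb, 57.3% and 197.4 tags per kb.

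The clusters were dense patchworks and not unbroken domains. Regions covered a median of 58.4% of the span (quartiles 49.5 and 68.0%, lowest 25.8%, highest 88.6%). The cover was over 50% in 158 clusters and over 75% in 19. Inside the clusters the median gap between neighbours was 615.5 bp (quartiles 178 and 2131 bp), against 730 bp in clusters of 10 to 19 regions and 949 bp in those of 2 to 9. The joining rule acts on these gaps, and long runs form where gaps are short, so this order is tied to the selection. Of the 5874 gaps, 59.8% were 1 kb or shorter, and 9.96% were longer than 5 kb. If regions within 1 kb of each other are read as 1 piece, the median cluster consisted of 11 pieces (lowest 3, highest 43) in place of 26 regions.

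The list did not stop at the ends of the clusters. The median distance to the next listed region was 18.6 kb on the side of the chromosome start and 16.6 kb on the other side, where the joining rule sets a minimum of 10 kb. The shortest such distances were 10004 and 10050 bp.

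The regions in clusters were of mixed length. Their median was 1383 bp (quartiles 890 and 2548 bp), and 549 of them (9.02%) were longer than 5 kb. At least 1 region over 5 kb was present in 171 clusters and at least 1 over 10 kb in 64. The region with the most tags held a median of 16.2% of all tags of its cluster (lowest 5.96%, highest 38.2%). Even in the most uneven cluster, most tags thus lay in the other regions.

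Over the covered part, the median cluster held 201.2 SAHA tags per kb (quartiles 179.5 and 218.1, 95% interval of the median 196.1 to 205.1), or 3.04 times the genome average. The sparsest cluster had 144.0 and the densest 309.9 tags per kb. All 214 were thus at 2 times the average or more, and 114 were at 3 times or more. Such multiples are tied to the listing, which takes only regions above background, and are not particular to clusters. Pooled over covered bases, the clusters held 208.1 tags per kb and the autosomal regions outside them 214.0. The clusters of 10 to 19 regions had a median of 198.3 (interval 195.5 to 200.8), so the intervals of the medians overlapped. Clusters with more regions were longer, with a Spearman rho of 0.75 over the 214 clusters, but the number of regions had little relation with cover (rho 0.057) or tag density (rho 0.055). Clusters with more cover also had a higher tag density (rho 0.52). Cover was most closely tied to the median gap (rho −0.80), followed by the median length of the regions (rho 0.66). Cover is the summed length of the regions over the span, so both relations are in part arithmetic. These are descriptions over clusters of the same libraries, and longer regions held more tags per kb (rho 0.71 over the 6088 regions), so cover and density are not independent.

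**Figure D1:**
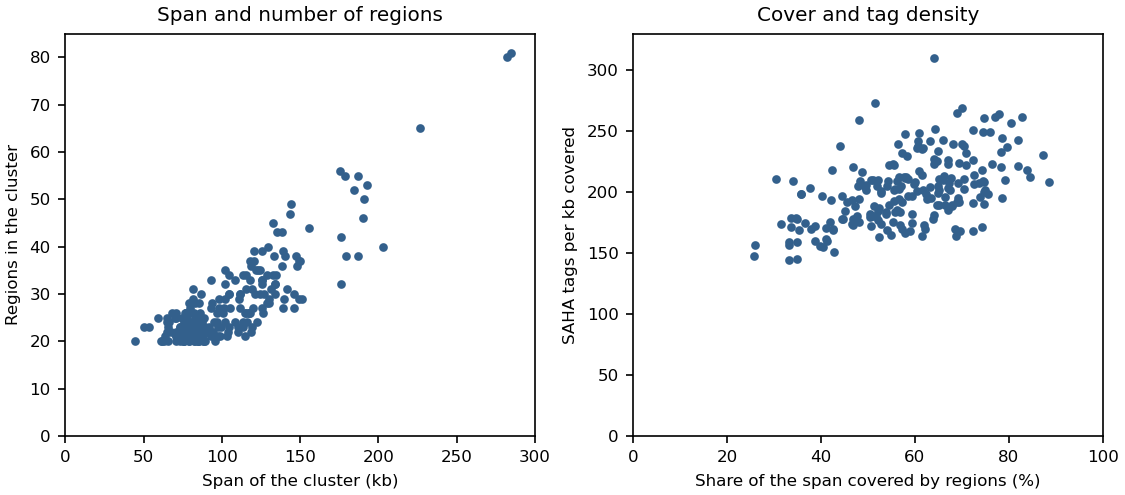
The 214 clusters, 1 point each. Left, the number of regions against the span in kb, where the clusters of 65, 80 and 81 regions stand apart at 226.5 to 284.6 kb. Right, SAHA tags per kb covered against the percentage of the span covered, where cover runs from 25.8 to 88.6% and density from 144.0 to 309.9.

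Regions within a cluster differed much more than clusters differed from each other. Of the variance of log2 SAHA tags per kb over the 6088 regions, 11.6% lay between clusters and the remainder within them. The share between clusters was 9.26% for length, 14.0% for the local DMSO level, 10.9% for the ratio and 8.51% for the summit fold. Directly adjacent regions resembled each other weakly, with a Spearman rho of 0.32 for tags per kb over 5874 pairs and 0.39 for the DMSO level over 5807 pairs. Adjacent regions can share the 10 kb window from which the DMSO background was taken.

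The 10 clusters with the most regions lay on 9 autosomes and had 49 to 81 regions each. The largest, on chromosome 5 from 5084663 to 5369300, held 81 regions in 43 pieces. Its regions had 101.1 to 372.9 SAHA tags per kb with a median of 164.5, so its densest region was over 2 times its median one. That region was also its longest, 6986 bp from 5317241 to 5324226 with 2605 SAHA tags (95% Poisson interval 2506 to 2707). It lay at 82.9% of the way along the cluster, and the last of 5 equal segments was the most covered, at 71.2% against 34.8 to 48.7% in the others. In 18 regions of this cluster the DMSO count of the region itself was recovered. These regions held 6193 SAHA tags and 2193 DMSO tags, which is 1.74 to 1 after depth scaling (95% exact binomial interval 1.66 to 1.83).

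The cluster on chromosome 7 from 89491921 to 89774247 held 80 regions over a similar span but only 23 pieces, and its cover was highest in the first segment, at 78.9%, and lowest in the last, at 49.6%. Its regions had 111.8 to 283.5 tags per kb. Of its regions, 43 had a ratio of at least 2, and the highest ratio was 3.42. Its longest region, 10820 bp from 89564471 to 89575290, had the lowest ratio of the cluster: 2591 SAHA tags were about 1.12 times a DMSO level of 3.24 times the average. Its densest region, 6322 bp from 89676313 to 89682634, had 1792 tags and a ratio of about 2.69. The longest and the densest region were thus different parts of the same cluster. Both levels matched none of the backgrounds tried for the caller and are approximate.

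On chromosome 4, from 97453054 to 97679569, 65 regions in 26 pieces covered between 50.0 and 70.5% of each segment, without an order along the cluster (Spearman rho of position and tags per kb −0.03). On chromosome 13, from 15560928 to 15736554, 56 regions covered 64.8% of the second segment and 20.3% of the last, and the cluster was the sparsest of the 10 with 172.4 tags per kb (95% Poisson interval 169.7 to 175.2). On chromosome 14, from 21678979 to 21865708, 55 regions thinned in the opposite sense to chromosome 5. The first segment was 80.4% covered with 246.6 tags per kb, and the last was 52.8% covered with 170.2. In that cluster the densest region, 3054 bp from 21710564 to 21713617, held 975 SAHA tags and a recovered count of 443 DMSO tags.

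The cluster on chromosome 16 from 85868541 to 86047091 had the highest median ratio of the 10, at 2.06 over its 55 regions (lowest 1.42, highest 3.97), and 14 of them had a summit fold of at least 6. Its longest region, 9512 bp from 85894313 to 85903824, held 3611 tags or 379.6 per kb, yet its ratio was about 1.42, the lowest of the cluster. The DMSO level there was about 4.05 times the genome average, against a median of 1.16 in the cluster. This was its densest region as well.

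On chromosome 10, from 36967769 to 37160736, 53 regions were concentrated in the middle, with cover of 83.5% in the third segment and 34.5 and 42.8% in the outer ones. Its densest region was the outermost one, 4830 bp from 36967769 to 36972598, with 1911 tags or 395.7 per kb. On chromosome 3, from 148459820 to 148644264, cover went up in every step along the cluster, from 33.7 to 78.1%, and tags per kb from 156.1 in the first segment to 206.5 in the last. No other listed region followed this cluster for 2343183 bp.

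The cluster on chromosome 2 from 117612753 to 117803690 was the densest of the 10, with 237.7 tags per kb over 50 regions (95% Poisson interval 234.9 to 240.6). Its 8 regions with a recovered DMSO count held 7522 SAHA and 2202 DMSO tags, a depth-scaled ratio of 2.11 (interval 2.01 to 2.21). The last of the 10, on chromosome 14 from 47510739 to 47654614, had the lowest such ratio among them, 1.48 (interval 1.34 to 1.64), from 1264 SAHA and 526 DMSO tags in 3 regions. The median level of its 49 regions was 1.08 times the average, the lowest of the 10, and the median ratio was 1.91.

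**Figure D2:**
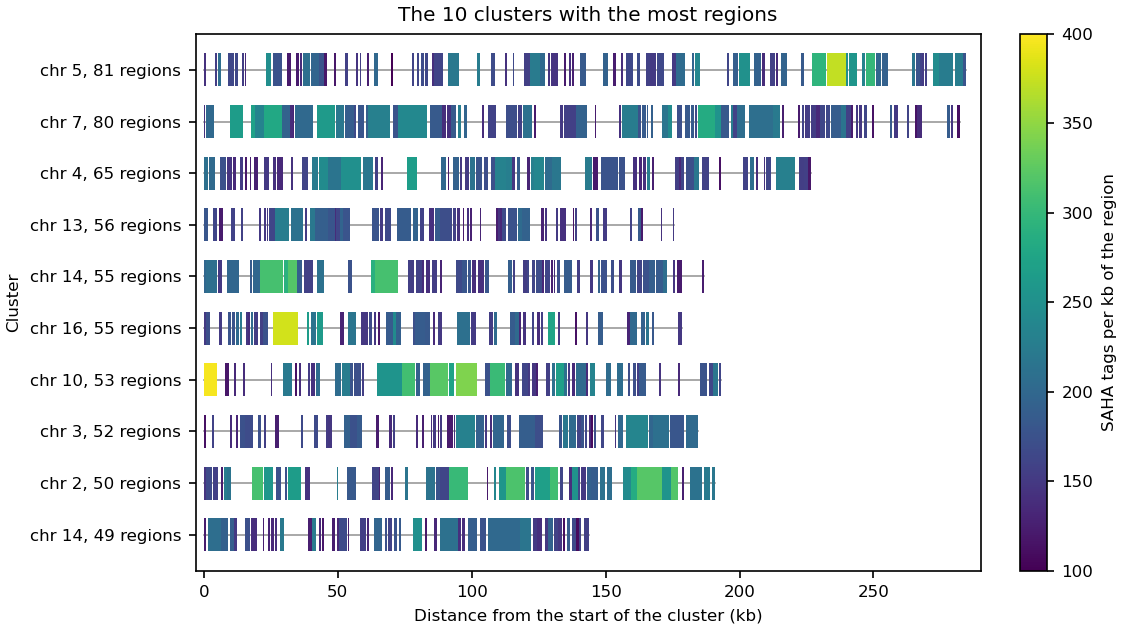
Maps of the 10 clusters with the most regions, drawn to scale in kb from the start of each cluster. Each block is a listed region, coloured by its SAHA tags per kb, and the grey line is the span; cover runs from 47.9% on chromosome 16 to 65.1% on chromosome 7, and the densest blocks sit at different places in each cluster.

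The most fully covered cluster lay on chromosome 9 from 45830205 to 45914784, where 20 regions in 4 pieces covered 88.6% of 84.6 kb. Clusters on chromosome 2 (52848036 to 52932946), chromosome 7 (103368199 to 103515514), chromosome 9 (41285549 to 41383675) and chromosome 11 (61771822 to 61862189) followed, with cover of 87.3, 84.5, 83.8 and 82.8%. These 5 came close to unbroken domains, with 4 to 7 pieces each. At the other end, 20 regions on chromosome 13 from 44855738 to 44930796 and 22 on chromosome 18 from 35283550 to 35368789 both covered 25.8%, and 21 on chromosome 10 from 37313780 to 37406536 covered 30.5%. The regions of the sparse clusters were short, with medians of 838, 813.5 and 1144 bp, against 1658 to 2932 bp in the 5 most covered.

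By tag density, 3 of the 5 leading clusters lay on chromosome 17. The densest, from 87435886 to 87587097, held 30043 tags in 29 regions, or 309.9 per kb covered (95% Poisson interval 306.4 to 313.4). The others on this chromosome spanned 7782961 to 7932369 and 79472192 to 79585649, with 269.5 and 264.8 tags per kb. On chromosome 4, from 56319739 to 56522600, the density was 273.1, and on chromosome 9, from 34757922 to 34876639, it was 264.2. High SAHA density did not go with a high ratio: the median ratio of the first 4 of these clusters was between 1.74 and 1.77, below the 1.87 of all regions in clusters, and 1.94 in the one on chromosome 9. The sparsest clusters lay on chromosome 11 from 104203736 to 104297026 (144.0 tags per kb), chromosome 1 from 60539600 to 60619727 (144.8) and the sparsely covered stretch of chromosome 13 (147.2), and their median ratios were 1.91, 1.85 and 1.95. Across the 214 clusters, tag density and median ratio were almost unrelated (rho −0.07), while density and the median DMSO level were related (rho 0.47).

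The shortest clusters packed as many regions into less space. On chromosome 14, from 24236737 to 24281404, 20 regions spanned 44.7 kb, and on chromosome 15, from 61981718 to 62031937, 23 regions spanned 50.2 kb. On chromosome 4, from 101340449 to 101393615, 23 regions spanned 53.2 kb, and this cluster held the highest summit fold of all regions in clusters, 15.55. Its highest ratio, 4.28, was also the highest of any region in a cluster, and 13 of its regions had a ratio of at least 2.

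Along the clusters no common gradient was seen. Each span was divided into 5 equal segments. The mean cover was 60.5, 57.3, 58.5, 57.8 and 56.8% from the segment nearest the chromosome start to the last, and the median tag density was 192.1, 191.1, 188.0, 190.0 and 185.8 per kb. The middle segment was more covered than the mean of the 2 outer ones in 100 of 214 clusters (46.7%, 95% Wilson interval 40.2 to 53.4%) and had the higher tag density in 105. In clusters of 10 to 19 regions the middle was more covered in 338 of 842 (40.1%, interval 36.9 to 43.5%). There, the outermost of 10 equal parts of the span were covered by 66.2 and 66.3% on average and those between by 54.0 to 56.9%. By construction a cluster begins and ends with a region.

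The outermost regions were also much like the inner ones. The median length was 1348 bp for the first region of a cluster, 1307.5 bp for the last and 1385 bp for those between. Their tags per kb were 161.1, 163.9 and 165.7, and their ratios 1.83, 1.84 and 1.87. The longest region of a cluster lay in the first, middle and last of 3 equal parts in 72, 76 and 66 clusters, and the densest region in 65, 64 and 85.

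Single clusters did show an order, in both directions. The Spearman rho between position and tags per kb had a median of −0.02 over the 214 clusters (quartiles −0.22 and 0.16, lowest −0.69, highest 0.65). It was positive in 101 clusters and negative in 113, over 0.5 in 4 and under −0.5 in 8. The tag density past the midpoint of the span was within 0.8 to 1.25 times that before it in 174 clusters, higher in 16 and lower in 24. Clusters of 10 to 19 regions spread more widely, with rho from −0.84 to 0.88, and rest on fewer regions each.

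Among the clusters with the strongest order, that on chromosome 11 from 30082730 to 30161794 (rho 0.65) had 146.2 and 136.4 tags per kb in its first segments and 260.4 and 224.3 in its last ones. The part past the midpoint had 1.67 times the density of the part before it. On chromosome 3, from 27440118 to 27544516 (rho 0.56), the density went from 160.1 in the first segment to 237.8 in the fourth. The third in this direction was the sparse cluster of chromosome 1 (rho 0.53), with a ratio past the midpoint of only 1.12. In the other direction, the cluster on chromosome 5 from 93565558 to 93630137 (rho −0.69) fell in each step, from 238.9 tags per kb over 178.0 in the middle to 133.7, while its cover went from 96.7 to 43.8%. On chromosome 2, from 18836753 to 18913629 (rho −0.63), the first and last segments had 218.8 and 125.1 tags per kb. On chromosome 8, from 106286138 to 106396083 (rho −0.62), the first 3 segments had 231.5 to 322.2 and the last 2 had 139.6 and 140.7.

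**Figure D3:**
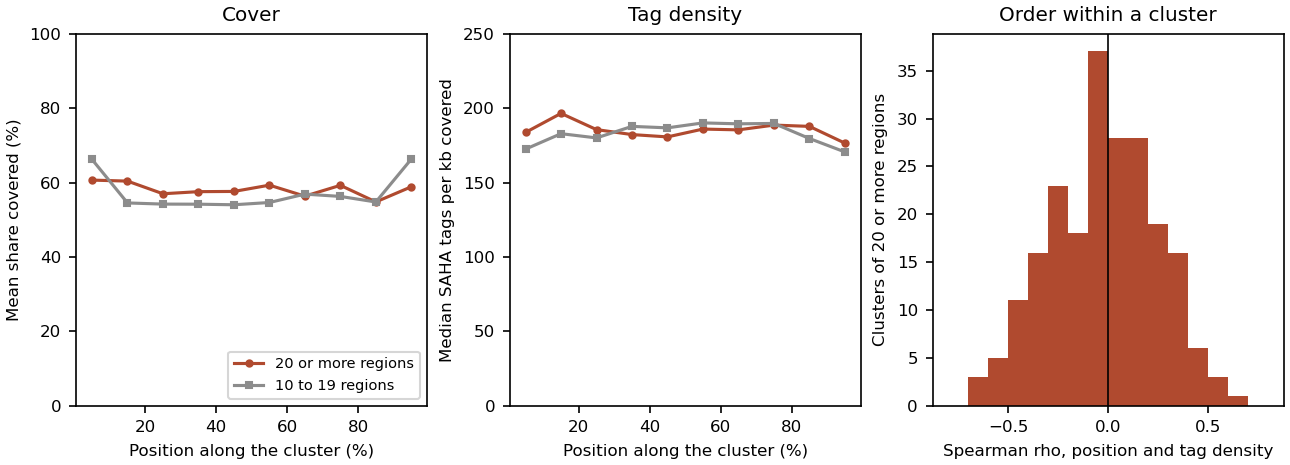
Left, the mean percentage covered in 10 equal parts of a cluster; middle, the median SAHA tags per kb covered in the same parts; red circles are the 214 clusters of 20 or more regions and grey squares the 842 of 10 to 19. Right, the Spearman rho of position and tags per kb in each of the 214 clusters, centred near 0 with 101 above and 113 below it.

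Regions in clusters stood further above DMSO than other regions of the list, by a modest margin. Their median ratio was 1.87 (quartiles 1.65 and 2.14, 95% interval of the median 1.86 to 1.88, 6054 regions with a recovered level). It was 1.83 in clusters of 10 to 19 regions, 1.80 in those of 2 to 9 and 1.74 in single regions. A ratio of at least 2 was found in 2162 regions in clusters (35.7%), where 28.0% of all listed regions with a level reached it, and in 19.9% of single regions. A summit fold of at least 6 was listed for 659 regions in clusters (10.8%) against 7.29% of the whole list, and a score of at least 100 for 4233 (69.5%) against 62.5%. A summit fold of at least 10 was as frequent as elsewhere, in 15 regions of 15 clusters (0.246%) against 0.241%. The FDR was listed at 100% for 893 of them (14.7%) against 11.6%. It was also high below that value: for the densest and the longest region of each of the 10 largest clusters described above, it was listed at 59.74 to 100%. The summit fold, the score and the FDR are as the authors listed them. Nothing is read from these shares beyond the description, since position in the list and all of these values come from the same comparison.

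The same order was seen in the subset of regions whose recovered level was a whole DMSO count of the region. These DMSO counts were recovered from the same scores, so they give no independent check. In the 756 regions in clusters whose level was their own DMSO count, there were 321153 SAHA and 107454 DMSO tags, a depth-scaled ratio of 1.84 (95% Wilson interval 1.83 to 1.85). In the 1409 such single regions, there were 611438 SAHA and 229549 DMSO tags, a ratio of 1.64 (interval 1.63 to 1.65). Within each of the 19 autosomes the median ratio and the median summit fold were higher in clusters than in the other regions of the same autosome.

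How SAHA density and the DMSO level differed between regions in clusters and single regions depended on the length of the regions. Over all lengths the median SAHA density of a region was higher in clusters, at 165.5 tags per kb (95% interval 164.0 to 167.0) against 155.9 in single regions (interval 154.7 to 157.2). Pooled over all covered bases the order was the reverse, with 208.1 tags per kb in clusters and 212.9 in single regions. The median DMSO level was 1.27 (interval 1.25 to 1.28) against 1.32 (interval 1.30 to 1.34). Only in the 1512 regions in clusters over 1.6 and up to 3.2 kb was SAHA density close to that of single regions, with a lower DMSO level. In regions over 1.6 and up to 3.2 kb, the median SAHA density was 182.5 tags per kb in clusters (95% interval 180.3 to 184.8, 1512 regions) and 180.6 in single regions (interval 178.4 to 182.2, 2074 regions). The median DMSO level was 1.45 times the genome average in clusters (interval 1.42 to 1.47) and 1.67 times in single regions (interval 1.64 to 1.69). The median ratio was accordingly 1.90 (interval 1.87 to 1.92) and 1.60 (interval 1.58 to 1.62), and the middle size classes fell between, at 1.82 for 10 to 19 regions and 1.72 for 2 to 9. Within this length range, the only one counted by autosome, the median DMSO level was lower in clusters than in all other regions of the same autosome in 17 of 19 autosomes. These include chromosome 12, where both medians were 1.423, and chromosome 19, with only 12 regions in clusters in this range. The ratio was higher in all 19 autosomes. Over all lengths the level was lower in clusters in only 9 autosomes and higher in 10, and the median SAHA density of a region was higher in 17.

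Regions of other lengths differed in other ways. Among regions over 3.2 kb the DMSO level was 1.95 in clusters and 2.33 in single regions, and the ratio 1.74 and 1.50. SAHA density was lower in clusters there too, at 227.2 and 238.5 tags per kb. In this range only 487 of 1067 levels in clusters and 722 of 1285 in single regions matched a background of the caller. The ratios with these alone were 1.81 and 1.53. The largest group, regions over 0.8 and up to 1.6 kb, had a higher SAHA density in clusters, 153.3 tags per kb (interval 151.7 to 154.9, 2317 regions) against 146.9 in single regions (interval 146.1 to 148.1, 3170 regions). Its DMSO level was 1.20 in clusters (interval 1.18 to 1.21) and 1.24 in single regions (interval 1.23 to 1.25), and the ratio 1.89 and 1.75. Among regions of 0.8 kb or shorter the density was 132.9 (interval 131.8 to 134.1, 1158 regions) and 128.0 tags per kb (interval 127.2 to 128.7, 1993 regions). The recovered level there was not lower in clusters, at 1.01 against 1.00, and the ratio was 1.86 and 1.82. The lower quartile of the level was 1.00 in both. A level matched to the genome average is an upper limit, so a lower DMSO signal in either class could not be seen. With levels that matched a background of the caller alone, the ratios in the range over 1.6 and up to 3.2 kb were 1.92 in clusters and 1.60 in single regions. The caller counted a redundant rate of 0.34 in DMSO and 0.03 in SAHA, per the file headers, and the part of this difference in the DMSO level was not tested.

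**Figure D4:**
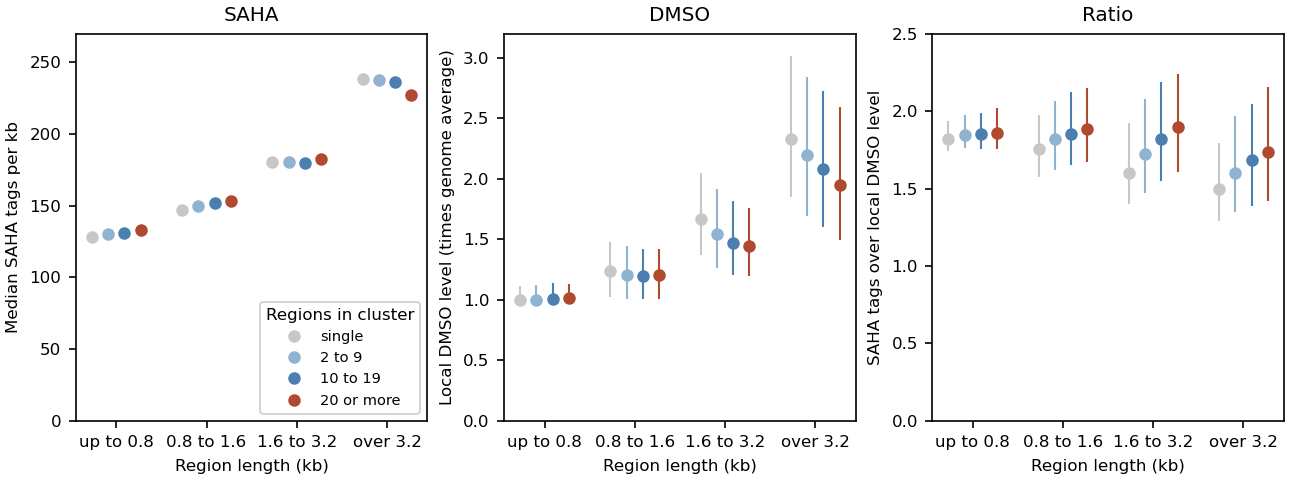
Regions by length in kb and by the number of regions in their cluster. Left, the median SAHA tags per kb; middle, the median local DMSO level as a multiple of the genome average; right, the median ratio between the 2; bars are quartiles. From 1.6 to 3.2 kb SAHA density is alike in all classes, while the level goes from 1.67 in single regions to 1.45 in clusters of 20 or more.

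Cluster by cluster, the median DMSO level ran from 1.00 to 2.11 times the genome average with a median of 1.26, and it was under 1.5 in 184 of the 214. The median ratio ran from 1.45 to 2.26 and was at least 2 in 32 clusters. In 156 clusters it exceeded 1.79, the median of the autosomal regions outside clusters. The highest median ratio, 2.26, was on chromosome 13 from 41537695 to 41669279, where 21 of 31 regions had a ratio of at least 2. Its 4 regions with a recovered DMSO count held 4285 SAHA and 934 DMSO tags, which is 2.83 to 1 after depth scaling (95% exact binomial interval 2.63 to 3.04). Its neighbour at a distance of 20664 bp, from 41393970 to 41517031, ranked 5 with a median ratio of 2.19 over 35 regions. Their median DMSO levels were close to the genome average, at 1.01 and 1.03 times. Levels matched to that average are upper limits, so the DMSO signal itself may be lower.

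The other 3 with leading ratios were similar in their DMSO level. On chromosome 18, from 55396721 to 55469629, the median ratio was 2.23 and the median level 1.00. On chromosome 16, from 86083063 to 86163838, these were 2.20 and 1.01, and this cluster lay near the one of 55 regions and median ratio 2.06 described above. On chromosome 8, from 105371173 to 105432997, they were 2.20 and 1.00, with a ratio of at least 2 in 16 of 20 regions and a median summit fold of 5.735, the highest of all clusters. With the clusters of chromosome 13 included, the SAHA densities were 174.7 to 214.1 tags per kb. They lay on both sides of the median of the 214 clusters, 201.2, and below the upper quartile, 218.1. Over all clusters a high ratio went with a low DMSO level (rho −0.66 between the median level and the median ratio), which is part of the ratio itself.

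The autosomes differed in how many of their regions lay in clusters. On chromosome 3 this was 699 of 3762 regions (18.6%, 95% Wilson interval 17.4 to 19.9%) in 25 clusters, and on chromosome 7 it was 571 of 3561 (16.0%, interval 14.9 to 17.3%) in 19 clusters. Chromosomes 8, 18, 16, 14, 1, 13 and 4 followed with 13.6 to 11.1%, and their neighbours in this order differed by less than their intervals. The lowest shares were on chromosome 19, with 27 of 1421 regions (1.90%, interval 1.31 to 2.75%) in 1 cluster, chromosome 11, with 138 of 3787 (3.64%, interval 3.09 to 4.29%) in 5 clusters, and chromosome 6, with 134 of 2891 (4.64%, interval 3.93 to 5.46%) in 5. The median autosome had 9.25% and 10 clusters. The intervals treat regions as independent, which neighbours in a cluster are not, so they are too narrow.

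Clustering did not follow the overall number of regions. Chromosome 11 had 31.9 regions per Mb, second to chromosome 18 with 32.9, but chromosome 18 had 12 clusters and chromosome 11 had 5. Over the 19 autosomes the rank correlation of regions per Mb with the share in clusters was −0.20. The share was higher on autosomes whose regions had a lower median DMSO level (rho −0.64) and a higher median ratio (rho 0.74). Chromosomes 19 and 6 had the highest median levels, 1.60 and 1.57, and chromosomes 3 and 7 had 1.23 and 1.18. These are descriptions over 19 chromosomes of the same 2 libraries, and regions in clusters are part of both sides.

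**Figure D5:**
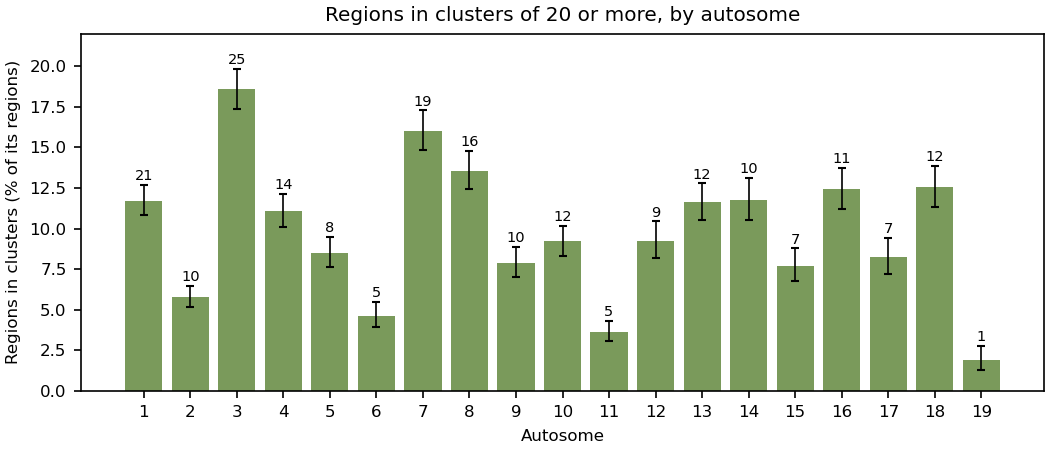
The percentage of the listed regions of each autosome that lay in clusters of 20 or more, with 95% Wilson intervals as bars and the number of clusters above. Chromosome 3 is highest with 18.6% and chromosome 19 lowest with 1.90%.

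Along the chromosomes the clusters were spread about evenly. With each autosome divided into 3 equal parts between its first and last listed region, 70 clusters lay in the part nearest its start, 68 in the middle and 76 in the last, or 32.7, 31.8 and 35.5%. All autosomal regions were divided as 29.8, 32.3 and 37.9%. Some clusters were neighbours of each other. Of 195 pairs of consecutive clusters on the same chromosome, 13 were within 20 kb, 29 within 100 kb and 60 within 1 Mb, while the median distance was 4.77 Mb.

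Joining clusters within 100 kb gave 25 groups with 54 clusters, 4 of them with 3 clusters. The longest, chosen after its values were seen like the others in this paragraph, ran from 117405094 to 117926899 on chromosome 2. It contained 118 regions that covered 56.1% of 521.8 kb, with 232.5 SAHA tags per kb and a median ratio of 1.90. On chromosome 7, from 136811002 to 137280349, 99 regions covered 61.7% of 469.3 kb. The largest cluster on chromosome 5 had a second one of 37 regions at a distance of 12434 bp, and together they held 118 regions from 4954454 to 5369300 with 50.6% covered. The closest pair of all was on chromosome 3, where a cluster of 21 regions ended at 27430068 and one of 30 regions began 10050 bp further on, just over the joining limit. These neighbours were unlike in their median ratio, which was 1.704 in the first and 2.06 in the second. A ratio of at least 2 was found in 1 of 21 and 17 of 30 regions. In the few regions with a recovered DMSO count this difference was not seen, and the intervals overlapped. The depth-scaled ratio was 1.76 in 5 such regions of the first cluster (exact binomial interval 1.58 to 1.96). It was 1.67 in 4 such regions of the second (interval 1.58 to 1.77).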

How the data were processed

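The files hold 1 list of regions from 1 SAHA and 1 DMSO library. The build was mm9 and the tools were MACS 1.4.0rc2, SAMtools, BWA 0.5.9 and CASAVA 1.7.0, per the submitters' processing notes. Per the file headers, MACS was run with SAHA as ChIP and DMSO as control, a p cutoff of 1e-05 and at most 3 duplicate tags per position. The deposited columns were whole counts of SAHA tags, a score (10 times −log10 of a Poisson p-value), a summit fold (a ratio) and an FDR in percent. Regions were joined and described with pandas 2.3.3, scipy 1.17.1 and numpy 2.4.6 in Python 3.11.15, and drawn with matplotlib 3.10.9. The scripts were tested on simulated lists.

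The local DMSO level is the Poisson mean at which more than the listed tags has the listed score, for scores under 3000. The backgrounds tried were the genome average and whole DMSO tags in the region, 1 kb or 10 kb. In 1497 of 6054 regions in clusters (24.7%) the level matched none of these within the score's rounding of 0.005, and it is approximate there. In the others it is an upper limit, or exact where it is the region's own DMSO count. The caller is known to take the highest background, which the headers do not state. No level was recovered for 34 regions.

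Medians have order-statistic intervals, shares Wilson intervals. The clusters named are the 10 with the most regions and the extremes of cover, density, span, order, ratio and distance. The members and lists were chosen with earlier results of these data known. With 1 library per condition no test was possible. Alternatives were other gaps, minimum sizes, scores, segments and levels.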

Additional observations from a re-analysis of the deposited data

How the results depend on the processing

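The number of clusters depends on the joining rule by construction: it was 66 with a gap of 5 kb, 470 with 20 kb, 445 with at least 15 regions, 69 with at least 30, 44 with a score of at least 100 and 20 with regions within 1 kb merged first, against 214. In the order 5 kb, 20 kb, at least 15 regions and score of at least 100, the median span was 74.4, 145.0, 75.7 and 111.6 kb. The median cover was 73.3% with 5 kb and 43.5% with 20 kb, and within its interval otherwise. Tag density moved only with a score of at least 100, to 214.5 tags per kb, where the middle segment was more covered in 59.1% of clusters. The share of chromosome 3 was 4.12% with 5 kb, 26.1% with at least 15 regions and 3.86% with a score of at least 100. Chromosome 3 was no longer first with 5 kb, where chromosome 14 was (6.45%), or with a score of at least 100, where chromosome 13 was (5.93%). The median ratio was 1.89 with 5 kb, 1.86 with at least 15 regions, 2.00 with a score of at least 100, 1.89 with matched levels and 3.03 without depth scaling, which multiplies it by construction. For the remaining shifts the cause was not tested. Of the 33 alternatives, 11 kept the value within its interval, among them both for the order along a cluster. Genes at clusters were not analysed. No paired analysis was possible because each condition has 1 library, and no alternative replaces replicates.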
